A study of Mus musculus musculus x M. m. domesticus and Mus musculus musculus x Mus musculus castaneus and Mus musculus domesticus with 42 samples.

Results

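The genes described here encode the liver-made proteins of the acute phase, complement and coagulation systems of mouse plasma. Of 41 named genes, 40 had at least 1 probe set whose only gene symbol in the platform annotation was theirs, and all 60 such probe sets were taken from the 45037 on the array, where 18193 genes had a probe set of their own. The rule uses no measured value, but the genes were named with earlier results of these data known, so their share of calls is no independent evidence. The acute phase genes had 25 of the probe sets, the complement genes 20 and the coagulation genes 15. C3, the central complement component, was not analysed here. A single probe set stood for each of 31 genes, and 9 genes had 2 or more. For these the probe set with the highest mean log2 signal in a tissue represents the gene, and the others are given where they differ.

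Brain, liver and testis of 14 males were measured, 1 array for each tissue and male and 42 arrays in all. The males belonged to wild-derived inbred lines of 3 house mouse subspecies, or were F1 hybrids of musculus with one of the other subspecies in either direction, with 2 males for each of 7 genotypes. The F1 are written with the mother first. Age was 45 days in domesticus, 47 days in musculus and castaneus, and 53 days in both kinds of F1 with a musculus mother. The domesticus x musculus males were 50 days old and the castaneus x musculus males 54 days. Only musculus and castaneus had the same age, so in every other parental comparison, and in every comparison that involves an F1, genotype and age cannot be told apart. The study asked how transcripts that differ between the parents are inherited in the F1, and which transcripts leave the parental range there.

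Hepatocytes secrete most plasma proteins. During inflammation, interleukin 6 and interleukin 1 raise the acute phase proteins there: serum amyloid A and the orosomucoids rise steeply, while haptoglobin, hemopexin and ceruloplasmin are already abundant at rest. Complement proteins mark and lyse microbes through the lectin, classical and alternative pathways, which end in the membrane attack complex of C5 to C9, and coagulation factors act in a protease cascade that turns fibrinogen into fibrin.

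The values are MAS5 signals, a linear intensity for each probe set and array. Males of 1 genotype correlated across all probe sets with r from 0.958 to 0.968 in liver, 0.974 to 0.979 in testis and 0.968 to 0.981 in brain. In liver, the summed signal of 10 hepatocyte markers was 259479 to 296045 on the 6 parental arrays and 203988 to 285731 on the 8 F1 arrays. In bulk tissue, fewer cells of a type and less RNA per cell cannot be told apart. With 2 males in each group an exact permutation test of a single probe set cannot give a two-sided p below 0.333, so tests came from limma fitted across all probe sets tested, on log2(signal + 31). A call is an adjusted p under 0.05.

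In liver the member probe sets had high signals, which depend on probe affinity as well as on the transcript. The representing probe sets lay above the 99th percentile of all probe sets for 18 of 40 genes and above the 90th for 36. Of the 15 acute phase genes, 8 differed at least 3-fold between the highest and the lowest genotype mean and the other 7 by less than 1.5-fold. None of the 13 complement or 12 coagulation genes reached 3-fold. The median ratio was 1.54 and 1.36 in these groups against 3.05 in the acute phase group. The acute phase genes also reached lower signals, with a lowest median of 129.5 against 2818.5 and 2626. No share over all or equally bright probe sets was taken for these ratios. Hp, Hpx, Cp and the inter-alpha-trypsin inhibitor chain Itih4 were in the even group. The orosomucoids, the serum amyloid A genes and Lcn2 were in the uneven one. The highest signal on any liver array ranged from 28762 to 49918, and the highest member signal was 38560. Whether the scanner limited the brightest members was not tested.

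**Figure D1:**
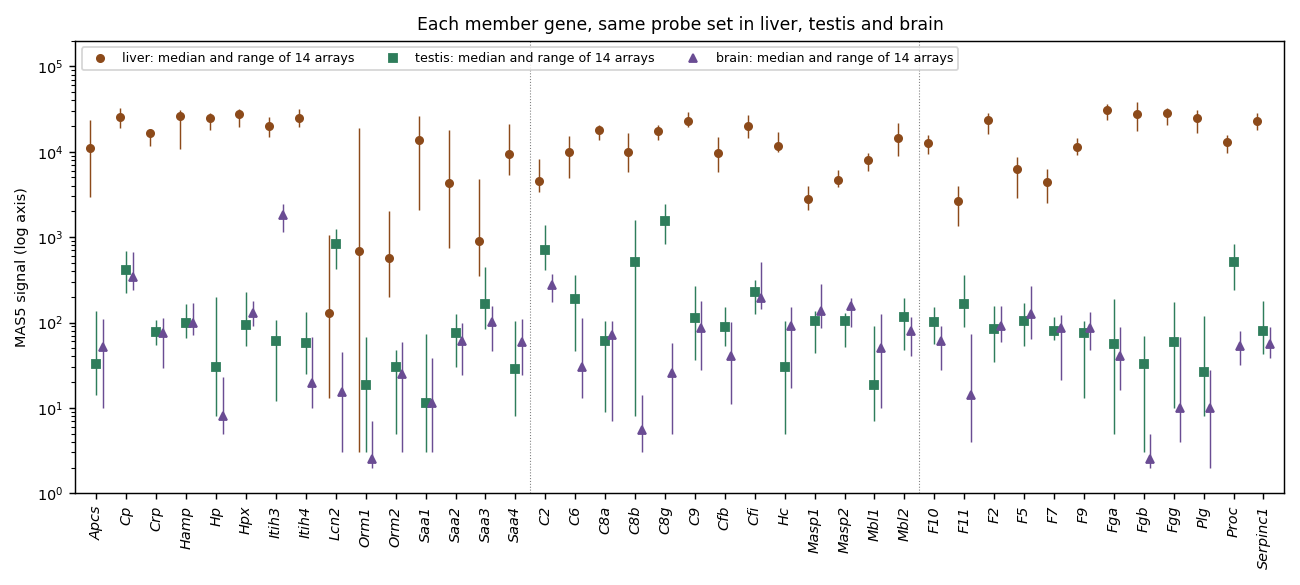
Signals (log axis) of the 40 member genes in liver, testis and brain, each gene by its brightest liver probe set, with the median (symbol) and range (line) of 14 arrays. Dotted lines part acute phase, complement and coagulation genes. Liver was above both other tissues for 39 of the 40 genes, and Lcn2 was higher in testis.

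The question of the parental comparisons was which transcripts differ between the subspecies. In liver, 14 of the 59 member probe sets tested differed between domesticus and musculus, 11 higher and 3 lower in domesticus, or 23.7% against 6.17% of all 27022 probe sets tested (3.16% higher and 3.01% lower). Between castaneus and musculus 12 differed, 5 higher and 7 lower, or 20.3% against 6.55% (3.14% and 3.41%). These comparisons share the musculus arrays. Between castaneus and domesticus 14 differed, 3 higher and 11 lower in castaneus, or 23.7% against 6.12% (2.86% and 3.27%). Some genes gave several of these calls. By the representing probe set alone, 7, 9 and 11 of 40 genes were called in the 3 comparisons, with no matching share taken over all genes. The member median was 0.09, 0.02 and -0.04 on the log2 scale in the 3 comparisons, against -0.05, -0.06 and -0.01 over all probe sets tested. After quantile normalization the first comparison had 11 higher and 6 lower calls. Without the first musculus male it had 7 calls and without the second domesticus male 9. Without the second castaneus male the castaneus comparisons had 7 calls against musculus and 9 against domesticus. These counts of the refits stand without the share over all probe sets, so whether other probe sets lost calls alike is not shown.

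Orm1, the acute phase protein orosomucoid, had the largest differences of any member. Its liver signal was 535 and 842 in the musculus males, 3 and 3 in the domesticus males and 19060 and 17561 in the castaneus males. The 3 subspecies did not overlap, and both domesticus values lay below the offset of 31, so the log2 scale understates the low end. Domesticus was below musculus by -4.37 ± 0.361 on the log2 scale (SE, adjusted p = 1.11e-05) and castaneus was above musculus by 4.70 ± 0.361 (adjusted p = 6.65e-06). Castaneus and domesticus differed by 9.07 (adjusted p = 2.21e-08). The calls held when each male was left out in turn. Orm2, a paralog, had 912 and 1257 in musculus, 503 and 1240 in domesticus and 2003 and 1376 in castaneus, with no call and differences from -0.42 to 1.04. The orosomucoid genes are close paralogs, so a probe set of one can also pick up transcript of another.

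Lcn2 encodes lipocalin 2, which binds bacterial iron carriers. Its liver signal was 686 and 330 in musculus, 85 and 84 in domesticus and 850 and 1060 in castaneus. Domesticus lay below both other subspecies, and it was lower than musculus by -2.14 ± 0.406 (adjusted p = 0.00678), a call lost when 1 of the 4 males was left out. Castaneus exceeded domesticus by 3.09 ± 0.406 (adjusted p = 0.000546).

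The serum amyloid A genes encode apolipoproteins of high-density lipoprotein that are induced in inflammation, and they showed another order of the subspecies. Saa3, the form also made by macrophages, had 920 and 893 in musculus, 4463 and 4844 in domesticus and 2006 and 1578 in castaneus. Domesticus was highest with no overlap, above musculus by 2.32 ± 0.330 (adjusted p = 0.000947), and castaneus was below domesticus by -1.37 (adjusted p = 0.0268). The first call was kept in 4 of 4 fits with a male left out and the second in 0 of 4. Saa4, the constitutive form, had 8595 and 11952 in musculus, 14637 and 21239 in domesticus and 5352 and 6425 in castaneus. Its differences from musculus were 0.80 in domesticus (adjusted p = 0.0439) and -0.79 in castaneus (adjusted p = 0.0453), and castaneus was below domesticus by -1.58. Of the calls against musculus, that of domesticus was kept in 2 of 4 fits with a male left out (differences from 0.53 to 1.06) and lost with no filter, after quantile normalization and without the intensity trend. That of castaneus was kept in 0 of 4, and the call between castaneus and domesticus in 4 of 4. A second Saa4 probe set gave 2.32 for domesticus against musculus (adjusted p = 0.00206) and an uncalled -0.52 for castaneus. Saa1 had 15271 and 25096 in musculus, 19107 and 26403 in domesticus and 8924 and 6131 in castaneus. Here musculus and domesticus overlapped and castaneus lay below both, by -1.40 from musculus (adjusted p = 0.00861) and by -1.60 from domesticus (adjusted p = 0.00392). The call against musculus was kept in 2 of 4 fits with a male left out. Saa2 had the same order and fell by 1.67 between domesticus and castaneus (adjusted p = 0.0138), a call kept in 2 of 4 such fits. The Saa1 and Saa2 probe sets can share transcripts, since the genes are nearly identical in sequence.

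Apcs, serum amyloid P component, a pentraxin, had 11279 and 5539 in musculus, 21668 and 23735 in domesticus and 12648 and 4069 in castaneus. Domesticus was highest, and castaneus fell below it by -1.66 ± 0.425 (adjusted p = 0.0365), a call kept in 1 of the 4 fits with a male left out, with differences from -2.47 to -0.84. The remaining acute phase genes, Crp, Hp, Hpx, Itih3, Itih4, Hamp and Cp, had no call in their brightest probe sets, with differences from -0.75 to 0.62 over the 3 parental comparisons. Hamp, the iron hormone hepcidin, had 30799 and 30485 in musculus but 10806 and 30809 in domesticus, so the domesticus males stood far apart. Of 8 Cp probe sets tested, 1 dim one was called lower in domesticus, by -1.74 (81 and 169 against 417 and 530 in musculus), and 0 of the other 7 were. That call was lost whenever a male was left out.

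**Figure D2:**
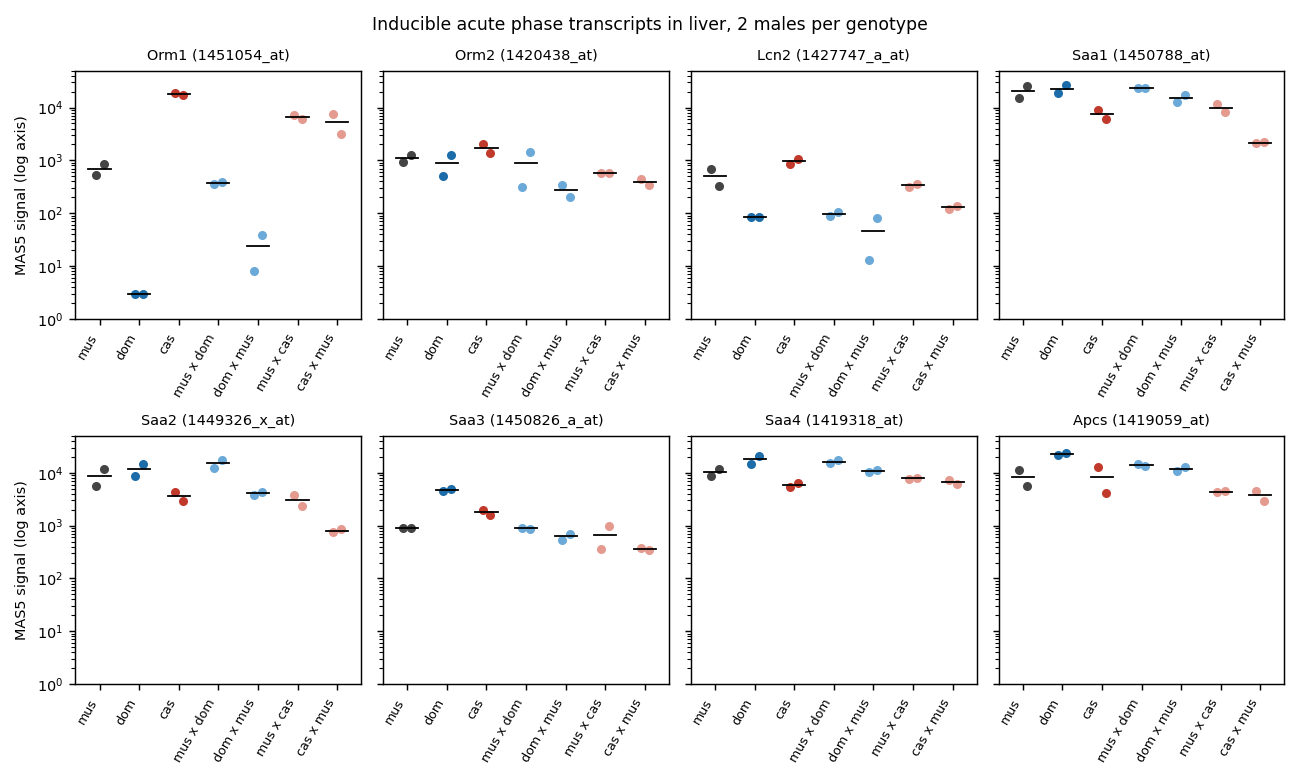
Liver signals (log axis) of 8 acute phase genes, among them the constitutive Saa4, in the 2 males of each genotype (points) with the genotype mean (line). Orm1 ran from 3 in domesticus to 19060 in castaneus, and the castaneus x musculus males had the lowest Saa1 and Saa2.

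Among the complement genes, the membrane attack components C6 and C8b were higher in both other subspecies than in musculus. C8b, the C8 beta chain, had 5859 and 6233 in musculus, 10935 and 13591 in domesticus and 15620 and 16565 in castaneus. Musculus was lowest with no overlap, and the differences were 1.01 ± 0.185 in domesticus (adjusted p = 0.00544) and 1.41 ± 0.185 in castaneus (adjusted p = 0.000486). With a male left out the domesticus call was kept in 2 of 4 fits and the castaneus call in 4 of 4. C6 had 4938 and 7092 in musculus, 10800 and 10614 in domesticus and 13920 and 15192 in castaneus. It differed from musculus by 0.85 (adjusted p = 0.0318) and 1.29 (adjusted p = 0.0026), and the domesticus call was kept in 1 of 4 fits with a male left out. The other chains of the complex, C8a and C8g, together with Hc (complement C5) and C9, had no call in any parental comparison, with differences from -0.39 to 0.56.

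C2, the protease that joins C4 in the classical and lectin convertase, had 3725 and 3997 in musculus, 7544 and 8203 in domesticus and 3395 and 5359 in castaneus. Domesticus was highest, above musculus by 1.02 ± 0.201 (adjusted p = 0.00836) and above castaneus, which differed from it by -0.88 (adjusted p = 0.0208). The first call was kept in 2 of 4 fits with a male left out. The second was kept in 1 of 4, with differences from -1.20 to -0.55, and was lost without the intensity trend. All 3 C2 probe sets were called for domesticus against musculus, with differences from 0.99 to 1.24, and the other two calls were kept in 3 of 4 and 0 of 4 fits. Cfb and Cfi, of the alternative pathway and its control, were not called, at -0.12 to 0.40.

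Mbl2, mannose-binding lectin C, which starts the lectin pathway, had 22013 and 19780 in musculus, 14283 and 13203 in domesticus and 9065 and 8858 in castaneus. The 3 subspecies did not overlap. Castaneus was below musculus by -1.22 ± 0.167 (adjusted p = 0.000678) and below domesticus by -0.61 (adjusted p = 0.048). The second call was kept in 0 of 4 fits with a male left out and was lost with no filter, without the intensity trend and with the replicate number as a block, while the first held in all of these. The related Mbl1 had no call, at -0.39 to 0.41. The partner serine proteases of the lectins had probe sets that disagree. For Masp1 the brightest probe set was not called, while a dimmer one was higher than musculus by 1.41 in domesticus and 1.5 in castaneus, and the 4 Masp1 probe sets tested ranged from 0.09 to 1.41 and from -0.16 to 1.5. For Masp2 the brightest gave -0.40 and -0.25 with no call, and the other 0.75 (adjusted p = 0.0338) and 1.29 (adjusted p = 0.0011), in the opposite direction. The domesticus call of the latter was kept in 1 of 4 fits with a male left out. Which transcripts each probe set reads was not tested.

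The coagulation genes that differed from musculus by their brightest probe set were all lower in castaneus. F5, the cofactor of the prothrombinase complex, had 8009 and 6557 in musculus, 8631 and 7411 in domesticus and 2849 and 3054 in castaneus. Castaneus was lowest with no overlap, by -1.29 ± 0.198 from musculus (adjusted p = 0.00157) and by -1.43 from domesticus (adjusted p = 0.000783). The second F5 probe set gave -0.50 and -0.24, with no call. F11, an intrinsic pathway protease, had 3798 and 3564 in musculus, 2063 and 3208 in domesticus and 1637 and 1355 in castaneus, and castaneus was below musculus by -1.29 ± 0.244 (adjusted p = 0.00657), a call kept in 2 of 4 fits with a male left out. F7, the tissue factor partner, had 6263 and 4872 in musculus, 4421 and 5473 in domesticus and 2529 and 2759 in castaneus. Its castaneus difference of -1.06 (adjusted p = 0.0227) was kept in 1 of 4 fits with a male left out.

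Of the fibrinogen chains, Fgb had 32607 and 32029 in musculus, 17501 and 23687 in domesticus and 35917 and 38560 in castaneus. Domesticus was lowest, and castaneus exceeded it by 0.87 (adjusted p = 0.0274), again in 1 of 4 such fits. Fga and Fgg were not called, nor were F2 (prothrombin), F9, Serpinc1 (antithrombin), Proc (protein C) and Plg (plasminogen), with differences from -0.20 to 0.39 over the 3 comparisons. F10 had no call in its brightest probe set, at 0.03 for domesticus against musculus. A dimmer F10 probe set had 801 and 787 in musculus, 2159 and 2198 in domesticus and 738 and 648 in castaneus, a difference of 1.42 ± 0.169 in domesticus (adjusted p = 0.000236), and castaneus was below domesticus by -1.61.

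**Figure D3:**
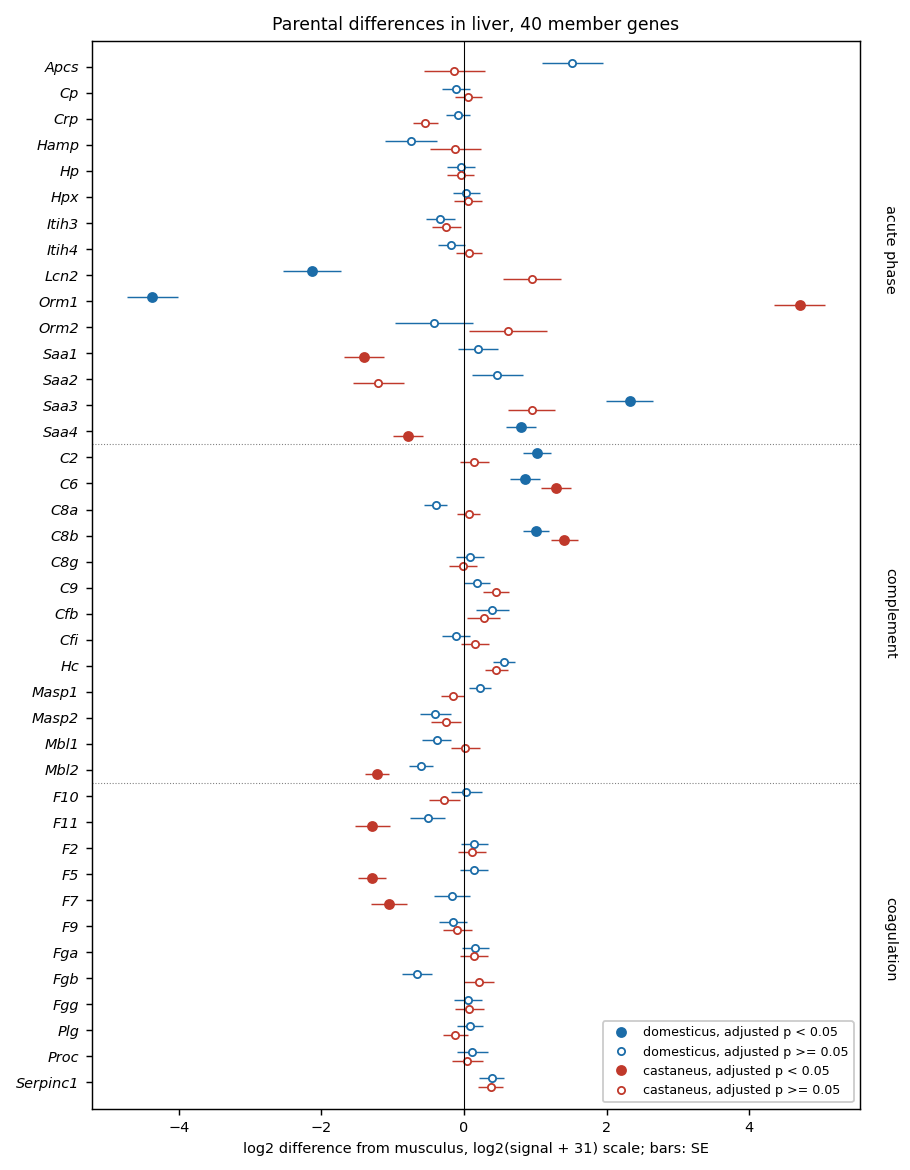
Liver differences from musculus (x axis, log2 scale) of domesticus (blue) and castaneus (red) for the 40 member genes, with SE; filled points have an adjusted p under 0.05. Orm1 lies at -4.37 in domesticus and 4.70 in castaneus, and most complement and coagulation genes lie near 0.

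Other genes of these systems were counted by their brightest probe set. For domesticus against musculus in liver, 1 of 19 other complement genes was called, Cd59a, an inhibitor of the membrane attack complex, higher by 1.68. None of 20 other coagulation genes was called, and 1 of 24 other plasma proteins was, the protease inhibitor Serpina3n, higher by 1.08. Of 19 genes of interleukin 6 and interleukin 1 signalling, Lifr and Myd88 were higher, by 1.52 and 1.22, and of 11 hepatocyte transcription factors Ppara was, by 1.08. For castaneus against musculus, 4 of 19 other complement genes were called: C1qb was lower by -1.23, and Cfp (properdin), C1s1 and Colec10 were higher by 0.99, 0.87 and 0.74. Coagulation again had 0 of 20. Among plasma proteins Mug1 was lower by -1.51, and Steap4, Fetub and Itih1 were higher by 1.45, 0.92 and 0.72. Among the signalling genes Lifr, Myd88 and Il1rap were higher, by 0.91, 0.85 and 0.72, Jak1 was lower by -0.59, and 0 of the 11 transcription factors was called. For castaneus against domesticus, Cd59a and C1qb of the complement list were lower, by -1.90 and -1.58, as were Pros1 of the coagulation list by -0.87 and Mug1 of the plasma list by -1.70, with 0 calls in the last 2 lists.

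Marker sums of resident and infiltrating cells were not tested, and their values follow. The summed signal of 9 macrophage and Kupffer cell markers in liver was 8182 and 8618 in musculus, 12775 and 14096 in domesticus and 15404 and 18714 in castaneus, against 5716 to 11501 in the F1. That of the neutrophil markers was 1126 and 1223, 1102 and 1343, and 1312 and 1563, against 620 to 1059 in the F1, with S100a8 and Camp too dim to be tested. The macrophage sums of the 3 subspecies did not overlap, and the neutrophil sums of musculus and domesticus did. The part of these cells in the member differences was not tested.

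In the F1 livers, the comparison with the mean of both parents asked whether the hybrids were intermediate. In the domesticus cross 1 of 59 member probe sets departed from it, Saa3, or 1.69% against 0.178% of all tested. Saa3 was also the only probe set of 27022 called lower in that comparison (0.0037% lower, 0.174% higher). In the castaneus cross 4 of 59 did, 6.78% against 0.241% of all tested (0.196% higher), all lower, and they made up 4 of the 12 lower calls of the whole array (0.0444%). These were both Saa1 probe sets, Saa2 and Saa3. The crosses share the musculus arrays.

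Saa3 had 921 and 863 in the musculus x domesticus F1 and 545 and 704 in the domesticus x musculus F1, close to or below musculus and below domesticus, for a difference of -1.43 ± 0.234 from the midparent (adjusted p = 0.0261). The call was lost in 8 of 8 fits with a male left out, with differences from -1.35 to -1.52. In the castaneus cross it had 361 and 989 in the musculus x castaneus F1 and 385 and 352 in the castaneus x musculus F1, a difference of -1.37 ± 0.234 (adjusted p = 0.0308). This call was kept in 2 of 8 such fits, with differences from -1.72 to -1.03, and in 4 of 9 other settings.

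Saa1 had 11652 and 8225 in the musculus x castaneus F1 and 2096 and 2244 in the castaneus x musculus F1. The latter lay below all 4 parental arrays and the former between the parents. The mean of both F1 was below the midparent by -1.38 ± 0.197 (adjusted p = 0.0116). Saa2 had 3767 and 2335 in the musculus x castaneus F1 and 744 and 857 in the castaneus x musculus F1, and was below the midparent by -1.78 ± 0.252 (adjusted p = 0.0116). With the F1 of musculus mothers alone 0 of the 4 calls remained. With a male left out the difference ran from -1.56 to -1.20 for Saa1 and from -2.05 to -1.52 for Saa2, and some calls were lost.

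Lcn2 in the F1 was 87 and 106, then 13 and 80, in males of the domesticus cross with a musculus and a domesticus mother, and 311 and 364, then 122 and 137, in those of the castaneus cross with a musculus and a castaneus mother. Its differences of -1.36 (adjusted p = 0.141) and -1.54 (adjusted p = 0.0541) from the midparent missed the threshold. Orm1 had 350 and 390, 8 and 39, 7236 and 6106, and 7453 and 3184 in the same order of F1. All 8 values lay between the parental arrays of their cross, and its differences from the midparent of -0.10 and 0.67 were not called.

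Most member genes lay slightly under the midparent in both crosses. In the domesticus cross 14 of 15 acute phase, 12 of 13 complement and 12 of 12 coagulation genes were below 0, and in the castaneus cross 13, 9 and 11 were. The member median was -0.16 and -0.25 in the crosses, against -0.01 and -0.04 over all probe sets tested, and quantile normalization moved it to -0.05 and -0.13. The 429 other probe sets above the 99th percentile in liver had medians of -0.14 and -0.16, with 380 and 364 of them below 0, and the 22 member probe sets in that range had medians of -0.18 and -0.29. Both males were below all 4 parental arrays in 17 of 40 genes for castaneus mothers and 14 for musculus mothers of the castaneus cross, and in 11 for domesticus mothers and 1 for musculus mothers of the other cross, against 7.43%, 5.34%, 8.01% and 6.22% of all probe sets tested. After quantile normalization the counts were 15, 8, 9 and 2, against 6.49%, 5.39%, 6.52% and 6.64% of all probe sets tested. These shares cover dim and bright probe sets, while most members are bright. No share was taken among equally bright probe sets, so these counts are not shown to be particular to the members. In no F1 did a member gene have both males above the parental arrays on the deposited scale. The shares above over all probe sets tested were also small, at 3.5%, 3.62%, 4.28% and 6.22% in the same order of F1. Hepatocyte markers summed to 0.81 to 0.908 of the musculus mean in the F1 genotypes, and their part in these small differences was not tested. Exocrine pancreas markers, which mark tissue beside the liver, summed to 59605 in the second musculus x castaneus male and to 249 to 9109 on the other 13 liver arrays.

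**Figure D4:**
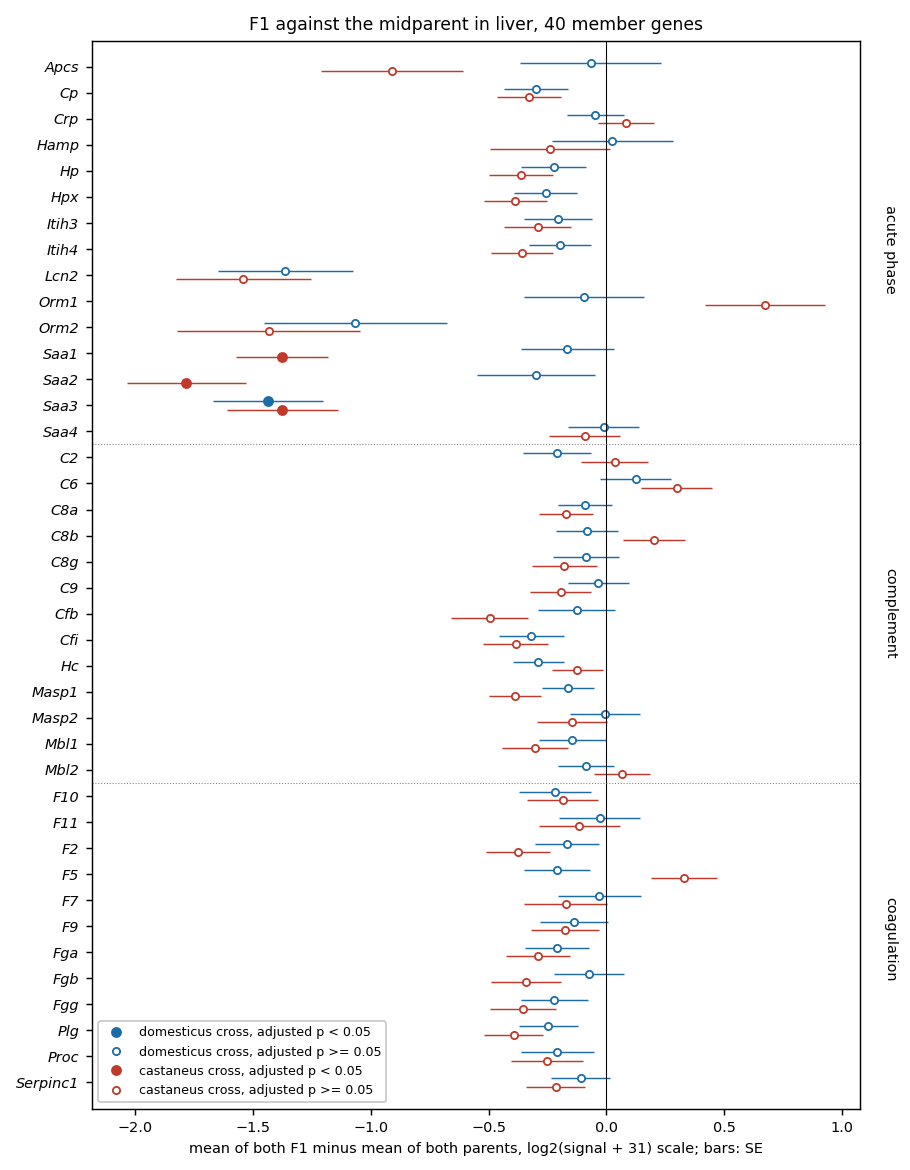
Departure of the 2 F1 directions, averaged, from the midparent in liver (x axis, log2 scale) for the 40 member genes in the domesticus cross (blue) and the castaneus cross (red), with SE; filled points have an adjusted p under 0.05. Most genes lie below 0, and Saa1, Saa2 and Saa3 lie between -1.37 and -1.78 where filled.

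The reciprocal comparisons asked whether the F1 depends on which subspecies is the mother. In the domesticus cross 1 of 59 member probe sets was called, Orm1 (1.69% against 0.0888% of all tested; 0.0481% higher and 0.0407% lower). Orm1 was higher with a musculus mother, 350 and 390 against 8 and 39, a difference of 2.94 ± 0.361 (adjusted p = 0.0133). With a male left out the call was kept in 1 of 4 fits, the one without the second domesticus x musculus male. In the castaneus cross 2 of 59 were called (3.39% against 0.037%; 0.0259% higher and 0.0111% lower), both of Saa1. Saa1 was higher with a musculus mother by 2.16 ± 0.278 (adjusted p = 0.0334), and the call was lost in 4 of 4 such fits. Saa2 gave 1.85 in the domesticus cross (adjusted p = 0.073) and 1.85 in the castaneus cross (adjusted p = 0.193). In the castaneus cross 15 of 15 acute phase genes lay above 0, with a median of 0.24, and in the domesticus cross 11 of 15 did, with a median of 0.27. The complement and coagulation genes were above 0 for 12 of 13 and 10 of 12 in the castaneus cross, with medians of 0.18 and 0.03, and for 7 of 13 and 4 of 12 in the domesticus cross. The median of all probe sets tested was 0.03 and 0.04 in these crosses. Their share above 0 was not taken, and genes measured in the same males are not independent of each other. The mothers' males were also of different ages here, 53 against 50 and 54 days.

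In testis most of these genes were near the lower end of the signals. The representing probe sets of 21 of 40 genes fell under the filter, 10 acute phase, 3 complement and 8 coagulation genes, with median signals of 18.5 to 83. Across all genotypes, 60 of 60 member probe sets differed between liver and testis, 59 higher in liver (100% against 76% of all 45037; 42.4% higher in liver and 33.6% lower). The exception was Lcn2, with 427 to 1250 in testis and a liver minus testis difference of -1.88 ± 0.119 (adjusted p = 9e-15). Between testis and brain 39 of 60 differed, 24 higher in testis and 15 lower, or 65% against 75.2% (30.6% and 44.6%). Lcn2, C8g, C8b and Proc exceeded brain by 4.15, 4.80, 3.65 and 2.65.

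The faint liver transcripts in testis did not spread evenly over the arrays. The second musculus x domesticus male had the highest signal for 11 of the 21 genes under the filter, with Hp at 198, Fga at 188 and Fgg at 173. The 10 hepatocyte markers summed to 4818 on that array and to 489 to 2556 on the other 13 testis arrays. The highest testis signal of a marker on any array ran from 75 for Ahsg to 1658 for Cps1, with Alb at 1084. Among the parents the sums were 557 and 1086 in musculus, 2374 and 2181 in domesticus and 1049 and 774 in castaneus.

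The parents differed in testis in 7 of 27 member probe sets tested between domesticus and musculus, 5 higher and 2 lower, or 25.9% against 12.8% of all tested (6.95% and 5.86%). Between castaneus and musculus 3 differed, all lower, or 11.1% against 13.5% (7.48% higher and 6% lower). Between castaneus and domesticus 10 did, 2 higher and 8 lower, or 37% against 12.4% (6.2% and 6.19%). The last count was 4 without the first domesticus male, 6 without the second and 5 without the second castaneus male. The share of all probe sets called in these refits is not given beside them.

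C8b was the member with the largest testis difference. Its testis signal was 1582 and 1248 in musculus, 17 and 8 in domesticus and 387 and 408 in castaneus. No subspecies overlapped another, and domesticus lay under the offset of 31. Domesticus was below musculus by -5.05 ± 0.2 (adjusted p = 2.93e-09) and castaneus by -1.75 ± 0.2 (adjusted p = 5.6e-05), while liver C8b was higher in both. The direction was thus opposite in the tissues, and the testis difference minus the liver difference was -6.06 ± 0.234 in domesticus (adjusted p = 1.52e-16) and -3.15 ± 0.234 in castaneus (adjusted p = 3.1e-10), in a fit of all 42 arrays with the animal as a block. These calls held with each male of either group left out. The same probe set read 3 to 14 in brain.

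The F1 had testis C8b signals of 611 and 595 in musculus x domesticus and 479 and 519 in domesticus x musculus, between the parents. On the log2 scale they were above the midparent by 1.22 ± 0.142 (adjusted p = 0.000633), and against the mean of the parental signals themselves they were below it by -0.35, with no call. This was the only member call of 27 in that comparison (3.7% against 0.414%; 0.403% higher and 0.0111% lower). The castaneus cross had 515 and 445 in musculus x castaneus and 1254 and 858 in castaneus x musculus, a reciprocal difference of -1.07 ± 0.2 (adjusted p = 0.00204).

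C8g, the C8 gamma chain, had 2445 and 2066 in the testes of musculus, 825 and 928 in domesticus and 1338 and 1633 in castaneus. Domesticus was lowest with no overlap, by -1.33 ± 0.171 from musculus (adjusted p = 0.000133), and castaneus was lower by -0.59 (adjusted p = 0.0345), a call lost whenever a male was left out. C6 ran the other way, with 74 and 57 in musculus, 298 and 361 in domesticus and 46 and 190 in castaneus, higher in domesticus by 1.90 ± 0.359 (adjusted p = 0.00283). C8a, the third chain, was under the filter in testis.

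**Figure D5:**
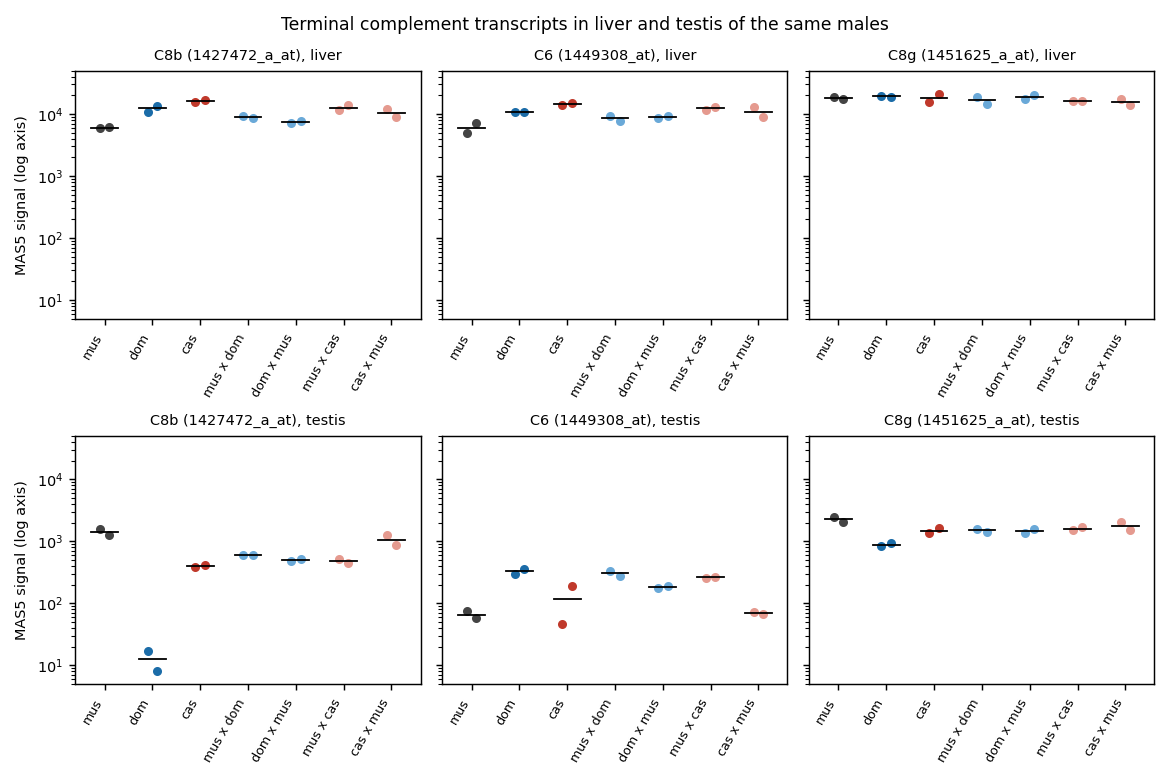
Signals (log axis) of C8b, C6 and C8g in liver (top) and testis (bottom) of the 2 males of each genotype (points) with the genotype mean (line). C8b in domesticus is above musculus in liver and reads 17 and 8 in testis against 1582 and 1248 in musculus.

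Among the acute phase genes in testis, Lcn2 had 862 and 1250 in musculus, 777 and 802 in domesticus and 427 and 440 in castaneus. Castaneus was lowest, by -1.20 ± 0.222 from musculus (adjusted p = 0.00239). In liver castaneus had the highest Lcn2, but it was called there against domesticus only and not against musculus. Cp, ceruloplasmin, a copper-carrying ferroxidase, had 220 and 357 in musculus, 686 and 672 in domesticus and 375 and 283 in castaneus, and was higher in domesticus by 1.19 ± 0.223 (adjusted p = 0.00276). Of the coagulation genes, F5, by its brightest testis probe set, which is the dimmer one in liver, had 225 and 310 in musculus, 823 and 715 in domesticus and 190 and 175 in castaneus. Domesticus was highest with no overlap, by 1.43 ± 0.248 from musculus (adjusted p = 0.00148) and with castaneus below it by -1.90 (adjusted p = 0.000171). F11 was higher in domesticus by 0.88 (adjusted p = 0.0157), a call kept in 1 of 4 fits with a male left out. Beside these genes and C6, which were higher in domesticus, the testis sums of hepatocyte markers given above and of macrophage markers were highest in domesticus too, the latter at 2368 and 2408 against 1838 and 1859 in musculus and 1670 and 1680 in castaneus. Their part in these differences was not tested. Proc, the anticoagulant protein C, ran from 238 to 824 with no parental call.

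In the castaneus cross the testes of the F1 differed across the whole array. Of all probe sets tested, 17.4% departed from the midparent (9.56% higher, 7.88% lower) and 28.4% differed between the reciprocal F1 (17.9% higher, 10.6% lower), against 2 of 27 members (7.41%) and 6 of 27 (22.2%). The median reciprocal difference of all probe sets was 0.24 and that of the members 0.24. After quantile normalization these were 0.03 and -0.02. Proc had 260 and 238 in musculus x castaneus and 654 and 525 in castaneus x musculus, a difference of -1.14 ± 0.181 (adjusted p = 0.000707). C6 was higher in the former, 255 and 270 against 72 and 68, by 1.54 (adjusted p = 0.00709). C2 also was, with 1353 and 1405 against 604 and 671, by 1.08 (adjusted p = 0.00449), while F5 was lower by -0.88 (adjusted p = 0.0188), a call kept in 2 of 4 fits with a male left out. Against the midparent Proc was lower by -0.55 and C2 higher by 0.62. With the castaneus x musculus F1 alone neither was called, and Proc stood at 0.02. With a male left out the difference ran from -0.65 to -0.45 for Proc and from 0.40 to 0.84 for C2, and some of these calls were lost. The Leydig cell marker sum was 16314 to 17853 in the musculus x castaneus testes against 5284 to 12989 in the parents of the cross, and the Sertoli cell sum 19334 to 20352 against 12133 to 14450. In the castaneus x musculus testes these sums were 6710 to 8657 and 12690 to 13602, within the parental ranges. Their part in the member differences was not tested. In the domesticus cross 0 of 27 members differed between the reciprocal F1 in the limma fit (0.204% of all tested, 0.0222% lower), with 0 at an unadjusted p under 0.05.

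The tissue dependence of the parental difference was tested over all 60 member probe sets. For domesticus against musculus, 13 differed between testis and liver (21.7% against 7.39% of all 45037; 6 with the larger value in testis against 4.38%, 7 with the smaller against 3.01%). With a male left out fewer were called, and the share of all probe sets called in those fits is not given. For castaneus against musculus 5 did, 8.33% against 7.82%, near the share over all probe sets. Of these, 1 had the larger value in testis against 4.72%, and 4 the smaller against 3.09%. Some were lost with a male left out. In testis, 4 of the 13 and 3 of the 5 were under the filter, among them Orm1, which read 3 to 67 there and gave 4.84 and -3.66.

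The other lists in testis had, for domesticus against musculus, 3 of 14 complement, 5 of 17 coagulation, 4 of 16 plasma protein, 2 of 17 signalling and 1 of 6 transcription factor genes called. Over all probe sets tested, 12.8% were called for domesticus and 13.5% for castaneus against musculus. The signalling and transcription factor counts of both comparisons lie near or under these shares, and no matching share was taken over all genes. For domesticus, Agt, angiotensinogen, was higher by 4.0, and Vwf and F13b were lower by -2.49 and -2.50. For castaneus against musculus the counts were 4, 5, 3, 1 and 1, with Serpina5, the protein C inhibitor, higher by 2.47 and F13b lower by -2.31.

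In brain 58 of 60 member probe sets were lower than in liver and 1 higher (98.3% called against 74.9%; 35.2% higher in liver and 39.7% lower). The higher one was a Masp1 probe set, with a liver minus brain difference of -1.29, while the brightest Masp1 probe set of brain was higher in liver by 1.93. Itih3, the inter-alpha-trypsin inhibitor chain, had a brain signal of 2467 and 2421 in musculus, 1650 and 1779 in domesticus and 1279 and 1274 in castaneus, lowest in castaneus by -0.92 ± 0.158 (adjusted p = 0.00454). It was the only call of 17 members tested for castaneus against musculus (5.88% against 6.07%; 3.12% higher and 2.95% lower). For domesticus against musculus 3 of 17 were called, all higher and all of Cp (17.6% against 5.75%; 3.26% higher and 2.48% lower). Cp had 264 and 243 in musculus, 667 and 544 in domesticus and 358 and 316 in castaneus, a difference of 1.16 ± 0.221 in domesticus (adjusted p = 0.00888). With 1 male left out the difference of this Cp probe set ran from 1.02 to 1.30, and the calls were mostly lost. The share of all probe sets called in those fits is not given. Choroid plexus markers, 5 genes, summed to 1347 and 1504 in musculus, 2679 and 2761 in domesticus and 2153 and 2319 in castaneus. Like Cp they were highest in domesticus and, unlike Itih3, lowest in musculus, and their part in these differences was not tested. In liver the same Cp probe set gave -0.12 with no call. The difference between brain and liver was not tested.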

How the data were processed

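The members and the other gene lists were chosen with earlier results of these data known. The values deposited by the authors are linear intensities, 1 for each probe set on an array, and the submitters' processing notes name MAS5. Version, detection calls and probe sequences were not used here, so differences between the subspecies under the probes were not tested. With the top and bottom 2% trimmed, array means were 492.47 to 498.1. Array columns were matched to samples by title, and 0 columns were unused. Of 45037 probe sets, 34945 had 1 gene symbol, 932 several and 9160 none. The scale used was log2(signal + 31), the offset being the 20th percentile of all signals, so differences of dim transcripts are understated. Per tissue, 27022 probe sets with a mean reaching the 40th percentile were fitted with limma 3.58.1 in R 4.3.3 (eBayes with trend, 7 residual degrees of freedom, Benjamini-Hochberg over all tested), checked on simulated data. Contrasts between tissues used all 42 arrays and 45037 probe sets with the animal as a random block (correlation 0.195). Arrays of 1 male, given by the labels' genotype and number, deviated together in 21 of 21 pairs (r from 0.159 to 0.476). Named were called members, at most 12 per comparison, and at most 4 genes per other list. Values on every array were planned for 6 members per comparison, and the further ones shown were chosen after their values were seen. All tests are two-sided. The number of arrays limits precision. Alternatives were offset, filter, normalization, trend, block, midparent scale, F1 direction, probe set suffix and each male left out.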

Additional observations from a re-analysis of the deposited data

Results flagged for a closer look

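The difference from musculus was not the same in testis and liver for 18 tests of member probe sets, by the difference itself in the fit of all 42 arrays with limma. Of 60 member probe sets, 13 were called for domesticus (21.7% against 7.39% of all 45037). For castaneus 5 were (8.33% against 7.82%), near the share over all probe sets. Values are the testis difference minus the liver difference on the log2 scale. For domesticus, C8b stood at -6.06, C8g at -1.42 and a C2 probe set at -0.89. Orm1 stood at 4.84, Lcn2 at 1.76 and Saa3 at -2.06, and a Saa4 probe set at -2.07. The probe sets of F5 and F11 stood at 1.69 and 1.39, a dimmer F10 probe set at -1.77 and a dimmer Masp1 probe set at -1.37. Both Cp probe sets called stood higher, the brightest at 1.30 and another at 0.86. For castaneus, C8b stood at -3.15, Orm1 at -3.66, Lcn2 at -2.15, the Masp1 probe set at -1.41 and Saa1 at 1.86. With an offset of 16 the domesticus values of Saa4, Masp1, C2, C8g and F11 missed the threshold, as did Masp1 in castaneus. In testis, 4 of the 13 domesticus and 3 of the 5 castaneus probe sets were under the filter, among them Orm1. Their values set a liver difference against testis signals near the low end. With a male left out some of these calls were lost, and the share of all probe sets called in those fits is not given.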

How the results depend on the processing

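Of 154 counts of called members under other settings 135 stayed within 1.5 times the count reported. The following did not, and the cause was not tested. Without the intensity trend in eBayes, liver had 9 calls for castaneus against domesticus, 0 and 2 for the F1 against the midparent in the domesticus and castaneus crosses, and 0 in both reciprocal comparisons. Quantile normalization left 0 calls for the F1 of the domesticus cross in liver. The midparent on the linear scale left 0 there and 0 in testis, where C8b moved from 1.22 to -0.35. The F1 of musculus mothers alone had 0 calls in both crosses in liver and 5 in the castaneus cross in testis, and those of musculus fathers alone had 0 in the latter, where Proc moved from -0.55 to 0.018. Without probe sets ending in _x_at or _s_at, 2 calls were left for the castaneus F1 in liver, 1 for their reciprocal comparison and 1 for the castaneus F1 in testis. With no filter the liver reciprocal comparison of the castaneus cross had 0 calls and castaneus against musculus in brain 2. An offset of 16 gave 8 calls for domesticus between testis and liver, and one of 100 gave 13 for castaneus.

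With 1 male left out at a time, calls in liver numbered 7 to 10 for domesticus against musculus, 7 to 10 for castaneus against musculus and 9 to 11 for castaneus against domesticus. They numbered 0 to 1 and 0 to 4 for the F1 against the midparent in the domesticus and castaneus crosses, and 0 to 1 and 0 to 0 for the reciprocal comparisons. In testis they were 4 to 7 for castaneus against domesticus and 1 to 2 for the castaneus F1 against the midparent, and in brain 0 to 1 for domesticus against musculus. Between testis and liver they were 5 to 9 for domesticus and 3 to 5 for castaneus. All these ranges count members alone and stand without the share over all probe sets in the same fits. Of 738 values of named members under alternatives, 617 kept their call and direction, 119 lost the call and 2 turned sign, those of C8b and Proc above.

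Deviations of males that shared a replicate number but not a genotype correlated with mixed signs. Of 21 correlations per tissue, 10 were above 0.1 in liver (from -0.281 to 0.297) and 10 in testis (-0.39 to 0.306). In brain 13 were (-0.466 to 0.561). Whether some genotypes shared a replicate effect was not tested. With the number as a replicate block, liver had 14, 12 and 13 calls in the parental comparisons, testis 7, 3 and 10 and brain 3 and 1. The block changed no count by more than 1.5 times, and among the named calls it ended that of Mbl2 between castaneus and domesticus and of the dim Cp probe set in liver, and 1 of Cp between the reciprocal F1 of the castaneus cross in testis. Leaving the animal out of the fits across tissues gave 60, 59 and 38 calls between tissues and 9 and 4 for the dependence on tissue.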

Other observations

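Markers of other cell types were also summed on every array. In testis the male germ cell markers summed to 70921 to 112546 and the epididymis markers to 320 to 1138. In brain the choroid plexus markers summed to 1346 to 2761, and the neuron and glia markers to 48115 to 66664 against 1425 to 2852 in liver. In liver the endothelial markers summed to 2192 to 4107 and the stellate cell and fibroblast markers to 2330 to 4806.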
